A study of Mus musculus with 4 samples.

Results

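The endothelial wells described here are single cells from the mouse hypothalamus with transcripts of blood vessel endothelium. They held few transcripts of Lcn2 and Ackr1, 2 genes that marked a second set of endothelial wells on the same plates. The wells described here were chosen from the count tables by a rule on summed transcripts. A well needed at least 1000 counts outside spike-ins and mitochondrial genes, and all limits were set per 10000 of those counts. The sum of the neuronal genes Snap25, Syt1, Stmn2, Tubb3 and Rbfox3 had to be under 12. The sum of the endothelial genes Cldn5, Flt1, Pecam1, Kdr and Egfl7 had to be at least 15 and above that of the fibroblast genes Col1a1, Col1a2, Slc6a13 and Lum. The sum of Lcn2 and Ackr1 had to be under 20. Of 1298 wells with enough counts, 113 met the rule.

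The study sorted tdTomato-labelled cells from the hypothalamus of C57BL/6 mice of the genotype Lepr-cre;Rosa-LSL-tdTomato into 384-well plates and read them with CEL-seq2, a method that tags the 3′ end of each transcript with a barcode for the well and one for the molecule. In these mice Cre recombinase under the leptin receptor (Lepr) gene removes a stop cassette, so a cell stays labelled once Lepr has been active, whether or not Lepr is transcribed when the cell is sorted. There were 3 plates from fed mice (plates 1, 2 and 3) and 1 plate from mice without food for 24 h, called the fasted plate. The labels give neither the number nor the sex or age of the mice behind a plate. The same 384 well barcodes served on all 4 plates by design.

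Endothelial cells line the blood vessels. In most of the brain they form the blood-brain barrier, with tight junctions between cells, few vesicles and a dense set of transporters that carry glucose, amino acids, hormones and lipids in and drugs out. Along the vessel tree they grade from arterial through capillary to venous cells, each with its own genes, and in the median eminence of the hypothalamus part of the capillaries are fenestrated, with Plvap, and let blood-borne hormones through.

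The wells were spread over all plates. On fed plate 1 the rule took 41 of 356 wells (11.5%, 95% Clopper-Pearson interval 8.39 to 15.3%), on fed plate 2 24 of 329 (7.29%, 4.73 to 10.7%), on fed plate 3 28 of 338 (8.28%, 5.58 to 11.8%) and on the fasted plate 20 of 275 (7.27%, 4.50 to 11%). The intervals cover counting error only, and those of the fasted plate and of each fed plate overlapped. Wells with the same endothelial transcripts at or above the limit on Lcn2 and Ackr1 numbered 74 on fed plate 1, 2 on fed plate 3 and 0 on the remaining plates. The median counts per endothelial well were 13700, 3566 and 5749 for fed plates 1, 2 and 3 and 7898 for the fasted plate, and all values below follow this order. Summed over wells the plates held 503872, 132052, 227726 and 248108 counts. A single well of 53243 counts supplied 21.5% of the fasted sum, and the deepest well of fed plate 2 supplied 19.8% of its sum.

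The limits cut through few wells. The endothelial sum of the lowest well inside was 19.0 and of the highest well outside 13.5, and for the neuronal sum the nearest wells stood at 11.8 and 12.5. On the sum of Lcn2 and Ackr1 the nearest wells inside stood at 19.0 and 17.7 and the nearest outside at 20.8. All 41 endothelial wells of fed plate 1 had at least 1 Lcn2 or Ackr1 transcript, against 2 of 24, 8 of 28 and 7 of 20 on the other plates. The remaining wells of fed plate 1, most of them not vascular, had such transcripts too, in 237 of 241 wells (98.3%) with a median sum of 5.85. The median of its endothelial wells was 5.46, a value that the limit itself holds down, so the 2 medians are not compared.

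The markers were those of barrier endothelium on every plate. The transporter Slco1a4, which carries organic anions, stood at 786, 2111 and 1736 CPM (counts per 1000000 counts of the summed wells) in fed wells and 2149 CPM in fasted wells, against 17.0, 7.0, 11.6 and 5.74 CPM in the other wells of the same plates. Slco1c1, the thyroid hormone and anion carrier, stood at 1263, 1533 and 1757 CPM in fed wells and 1059 CPM in fasted wells. Car4, a membrane-bound carbonic anhydrase of capillaries, stood at 191 CPM on fed plate 1 and at 1100, 814 and 590 CPM on the other plates. Every plate's level of these genes was above that of its other wells, while fed plate 1 was the lowest for Car4 and Slco1a4. Cldn5, the main claudin of brain vessels, and Flt1, a receptor for VEGF, were used by the rule and stood at 1558 to 2838 and 4948 to 5847 CPM. After each well was thinned to 1000 counts, Slco1a4 was seen in 77 of 113 endothelial wells (68.1%), in 10 of 742 other non-neuronal wells (1.35%) and in 8 of 367 neurons (2.18%). Without thinning the shares were 92.9%, 10.1% and 17.2%. This contrast chose the wells, so it describes them and is not a result.

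**Figure D1:**
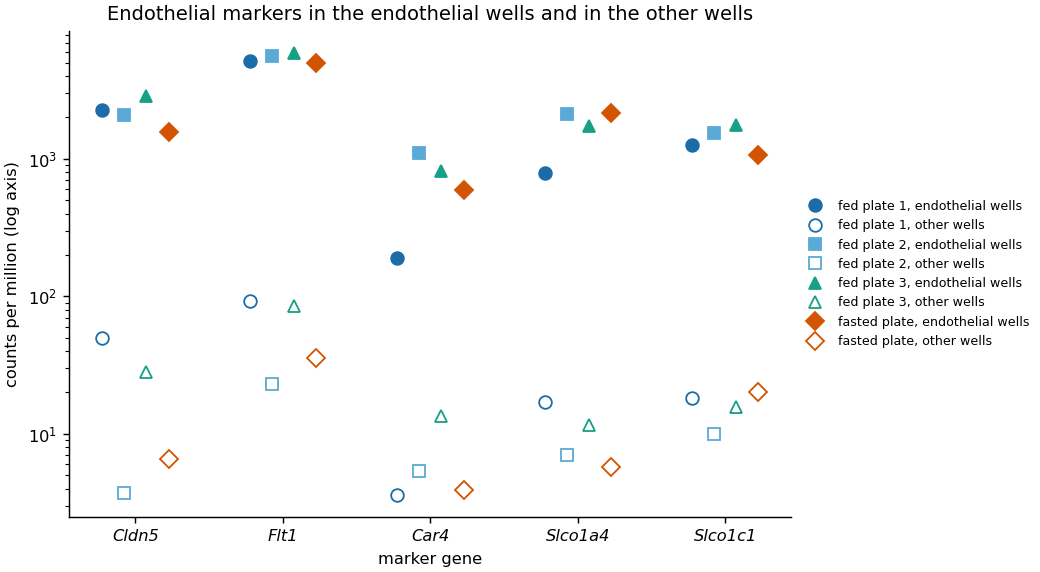
CPM (log axis) of the 5 marker genes on each plate, summed over the endothelial wells (filled) and over all other wells (open). All filled symbols lie above the open ones, and fed plate 1 is the lowest filled symbol for Car4 (191) and Slco1a4 (786).

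Outside the rule and the markers, the genes with the highest ratio to the other wells were mostly known endothelial ones. Robo4, an endothelial guidance receptor, stood at 189, 364 and 281 CPM in fed wells and 230 CPM in fasted wells, against 0.233 to 2.84 CPM in the other wells. Abcb1a, the drug efflux pump P-glycoprotein, stood at 972, 1396, 1427 and 1828 CPM. Ptprb, the phosphatase that restrains the Tie2 receptor, stood at 2390, 2034, 3132 and 2874 CPM. Nostrin, Zfp366, Adgrl4, Sox18, Emcn and the riboflavin carrier Slc52a3 completed this group, and each was higher in the endothelial wells than in the other wells on all 4 plates. Haemoglobin genes were also among the 15 highest ratios, from few wells. Hbb-bs stood at 5968 CPM on fed plate 1 and 8535 CPM on the fasted plate but at 0 and 17.6 CPM on fed plates 2 and 3. Haemoglobin sums of 50 or more per 10000 occurred in 4 endothelial wells of fed plate 1 and in 2 of the fasted plate, out of 5 and 2 such wells among all wells of those plates.

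Markers of 2 other cell groups stood out. The 5 blood markers, 4 of them haemoglobin genes, summed to 17175, 0 and 35.1 CPM in fed wells and 19053 CPM in fasted wells, against 217, 6.77, 11.4 and 94.1 CPM in the other wells. The summed markers of pericytes and smooth muscle stood at 5519, 2184 and 2842 CPM in fed wells and 1713 CPM in fasted wells, above the 485 to 1027 CPM of the other wells. Transcripts of 6 of these genes (Rgs5, Pdgfrb, Kcnj8, Abcc9, Vtn and Acta2), called the mural sum, reached 15 per 10000 in 17, 5, 7 and 3 endothelial wells, 32 in all. On the fasted plate Tagln, a smooth muscle gene, was at 0. Summed markers of astrocytes (147 to 347 CPM), tanycytes (109 to 347 CPM), oligodendrocytes (185 to 568 CPM), microglia (7.94 to 64.5 CPM) and fibroblasts (44.3 to 242 CPM) were below their level in the other wells on every plate. The 5 markers of the pars tuberalis, the pituitary lobe that touches the median eminence, summed to 187, 22.7 and 87.8 CPM in fed wells and 945 CPM in fasted wells. In the other wells they were also highest on the fasted plate, at 4803 CPM against 2846, 202 and 350 CPM.

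The endothelial wells held little leptin receptor transcript. Lepr was seen in 14 of 113 endothelial wells (12.4%), in 102 of 742 other non-neuronal wells (13.7%) and in 178 of 367 neurons (48.5%). At 1000 counts per well the shares were 2.65% (3 wells, 95% interval 0.551 to 7.56%), 2.70% and 6.81%. The share in the endothelial wells was thus at the level of the other non-neuronal wells and is not read as expression. Those wells were sorted by the same label and are no background without Lepr, so absence of expression cannot be read from it either. Lepr summed to 9.92, 37.9 and 17.6 CPM in fed wells and 20.2 CPM in fasted wells, too low to pass the filter of the test. Of receptors for other metabolic hormones, Igf1r stood at 688, 2482 and 1973 CPM in fed wells and 2249 CPM in fasted wells, and the insulin receptor Insr at 91.3, 280, 211 and 274 CPM. Both were above the other wells of each plate (at most 225 CPM for Igf1r and 59.5 CPM for Insr), and both were lowest on fed plate 1. The melanocortin receptor Mc4r and the incretin receptors Glp1r and Gipr had 0 counts in the endothelial wells.

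The endothelial wells were mixed along the artery to capillary axis. For each well, 10 arterial genes (Bmx, Sema3g, Gkn3, Efnb2, Hey1, Gja4, Gja5, Alpl, Vegfc and Mgp) and 9 capillary genes (Mfsd2a, Tfrc, Slc16a1, Rgcc, Car4, Cxcl12, Spock2, Slc7a5 and Slc22a8) were summed. These sets were picked after values of the wells had been seen, so the split is a description. The arterial sum was above the capillary sum in 27 of 113 wells. These artery-type wells made up 17 of 41 wells on fed plate 1 (41.5%) but 3 of 24, 4 of 28 and 3 of 20 on the other plates (12.5, 14.3 and 15%). The 2 sums were within a factor of 2 of each other in 15 wells, so most wells lay clearly on 1 side. By plate these were 10, 1, 1 and 3 wells, and the 3 on the fasted plate were its artery-type wells. The artery-type wells were deeper, with a median of 15188 counts against 5658 counts.

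**Figure D2:**
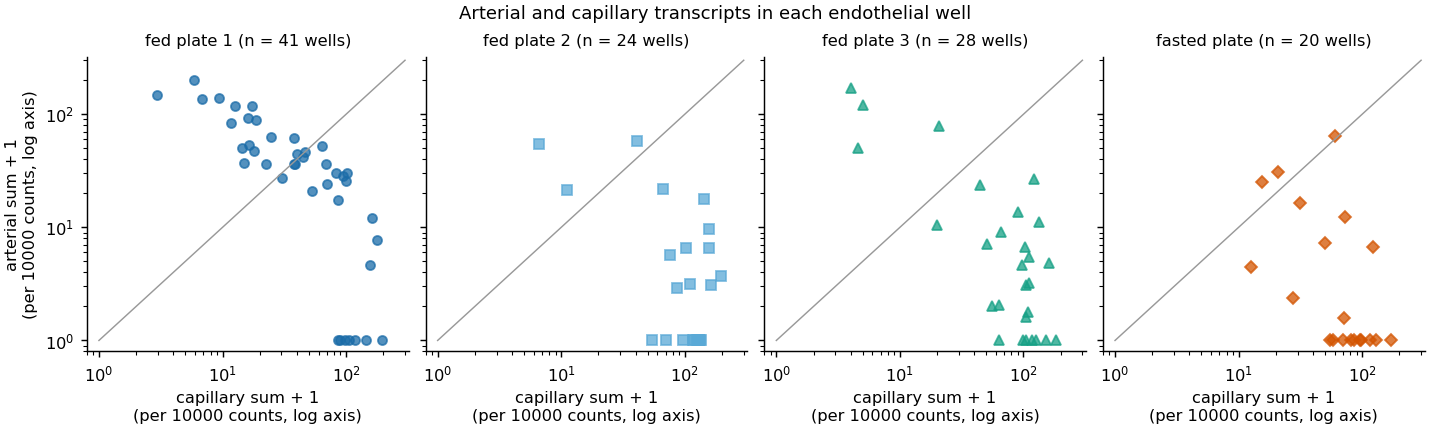
Each symbol is 1 endothelial well, with its capillary sum (x) and arterial sum (y) per 10000 counts plus 1, on log axes, in 1 panel per plate. Wells above the grey line are artery-type, 17 on fed plate 1 and 3 or 4 on each other plate.

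Artery-type wells held contractile and matrix genes that the split had not used. The fibulin Fbln5, an elastic fibre protein, stood at 544, 233, 796 and 194 CPM in the artery-type wells of fed plates 1, 2 and 3 and the fasted plate, against 30.5, 26.1, 6.57 and 6.04 CPM in the capillary-type wells. Nos1, a nitric oxide synthase, stood at 803, 291, 743 and 485 CPM against 87.2, 0, 13.1 and 0 CPM. Clu, the secreted chaperone clusterin, was higher in the artery-type wells on all 4 plates, at 2197 against 476 CPM on fed plate 1. Acta2 and Myh11, the actin and myosin of smooth muscle, were also higher there on all 4 plates, with Acta2 at 2686 against 231 CPM on fed plate 1 but at 36.3 against 6.04 CPM on the fasted plate. The median mural sum on fed plate 1 was 53.2 per 10000 in the artery-type and 5.30 in the capillary-type wells, while on fed plate 3 it was 1.15 and 3.80. The part of attached smooth muscle in these levels was not tested.

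Capillary-type wells carried the transport machinery. Slco1a4 stood at 1454, 2418, 2407 and 3011 CPM in the capillary-type wells and at 226, 58.2, 384 and 424 CPM in the artery-type wells. Slc38a3, a glutamine carrier, Slc40a1, the iron exporter ferroportin, and Slc19a3, a thiamine carrier, were higher in the capillary-type wells on all 4 plates. Igf1r followed the same order, at 1183, 2793, 2702 and 2966 CPM against 273, 408, 504 and 814 CPM. The junction gene Cdh5, which encodes VE-cadherin, differed little, at 484, 409, 316 and 236 CPM against 409, 408, 398 and 315 CPM. The 5 barrier transporters Slco1a4, Slco1c1, Slc2a1, Abcb1a and Abcg2, summed per well, had a median of 93.7 per 10000 in the capillary-type wells and 28.0 in the artery-type wells.

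Fed plate 1 stood apart within the capillary-type wells too. Tfrc, the transferrin receptor, stood at 135 CPM in its capillary-type wells and at 663, 908 and 896 CPM on the other plates. Slc7a5, the large neutral amino acid carrier, stood at 249 CPM there and at 959, 638 and 654 CPM elsewhere. Car4 showed the same order, at 323 CPM against 1265, 1139 and 818 CPM. All 3 belong to the capillary set that made the split.

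Few of the wells had Plvap or a high sum of venous genes. Plvap was seen in 2 of 113 wells (1.77%, 95% interval 0.215 to 6.25%), 1 on fed plate 2 and 1 on the fasted plate. In neurons, which should lack it, it was seen in 58 of 367 wells (15.8%), but at 1000 counts per well the shares were 1.77% and 0.545%. The 2 endothelial wells held 27.1 and 66.2 Plvap transcripts per 10000. The 13 genes of the fenestrated list, Plvap among them, summed to 1410, 2503 and 1679 CPM in fed wells and 1615 CPM in fasted wells. In the other wells they summed to 406, 637, 697 and 729 CPM. Of this list, Esm1 and Gpihbp1 had 0 counts in the endothelial wells of every plate. A sum of 6 venous genes (Slc38a5, Vwf, Nr2f2, Vcam1, Icam1 and Il1r1) of at least 50 per 10000 was reached in 4 wells, of which 2 were fasted and 1 each came from fed plates 1 and 3. Ackr1 is itself a venous gene and the rule removes wells rich in it, so the number of venous wells follows in part from the rule. Vwf, the clotting factor of larger vessels, stood at 532, 209 and 540 CPM in the capillary-type wells of the fed plates and at 1720 CPM in those of the fasted plate. Of the 291 Vwf counts in all fasted endothelial wells, 44.7% came from 1 well.

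On fed plate 1 the endothelial wells could be set beside the 74 wells at or above the Lcn2 and Ackr1 limit. The rule separates these classes, so the levels are a description without a test, and the intervals are exact Poisson intervals of the counts. The wells below the limit were richer in arterial genes. Alpl, the alkaline phosphatase of arterial and arteriolar endothelium, stood at 527 CPM (465 to 594) below the limit and 1.73 CPM (0.210 to 6.25) above it. Sema3g stood at 690 CPM (619 to 766) against 18.2 CPM (11.2 to 27.8), and Gkn3 at 782 CPM (707 to 863) against 6.92 CPM (2.99 to 13.6). Fbln5, Fbln2, Hey1, the connexin Gja4 and Nos1 were likewise higher below the limit, from 24.0-fold for Nos1 to 71.7-fold for Fbln5.

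Above the limit, genes of venous inflammation, the acute phase and the extracellular matrix were higher. Sele and Selp, the selectins that capture leukocytes, stood at 328 CPM (296 to 363) and 389 CPM (354 to 427) above the limit and at 5.95 CPM each (1.23 to 17.4, 3 counts) below it. Lrg1, an acute-phase glycoprotein, stood at 1822 CPM against 49.6 CPM, and its level in the other wells of fed plate 1 was 66.8 CPM. Il1r1, the interleukin 1 receptor, stood at 1073 CPM (1014 to 1134) against 27.8 CPM (15.2 to 46.6). C3, the central complement component, and Grem1, a BMP antagonist, had 0 counts in the 41 wells below the limit, which allows up to 7.32 CPM, and stood at 254 and 201 CPM above it. Dcn, one of the fibroblast markers summed above, stood at 4075 CPM above the limit and 37.7 CPM below it. Timp4 stood at 1232 against 21.8 CPM and Col6a6 at 434 against 7.94 CPM. Steap4, Cd14 and Tnfsf8 were also higher above the limit. On the other plates Il1r1 was higher, at 114, 193 and 530 CPM, Dcn stood at 20.2 to 60.6 CPM, and Col6a6, a collagen, at 0, 39.5 and 28.2 CPM. The other 9 of these 12 genes were at or below 16.1 CPM there.

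**Figure D3:**
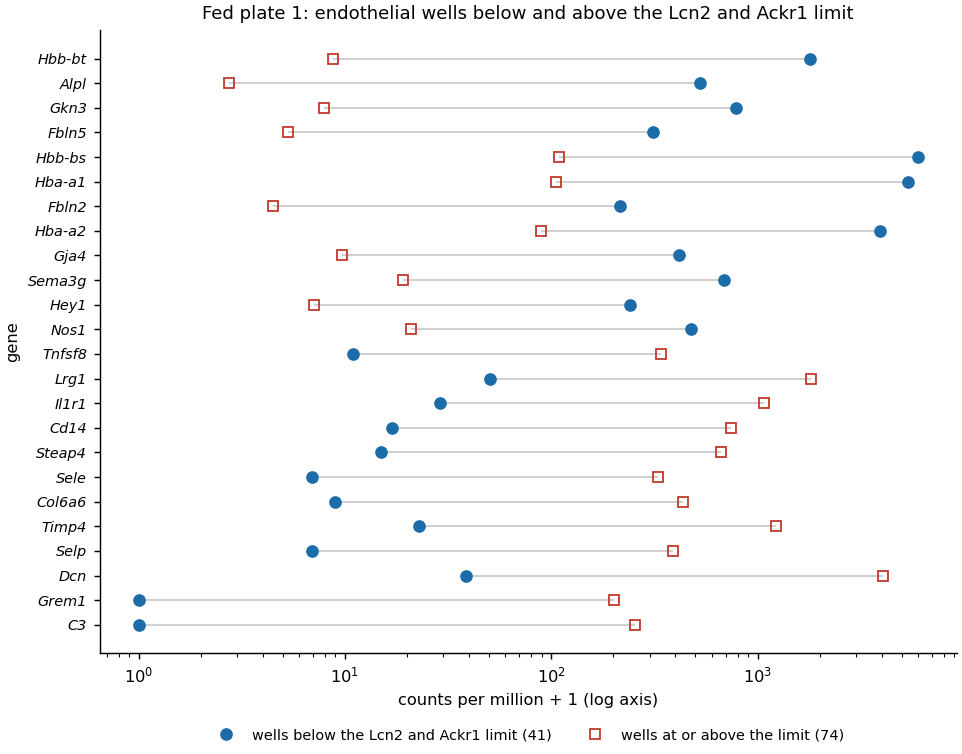
Fed plate 1: CPM plus 1 (log axis) of the 24 genes that differed most between the 41 endothelial wells below the Lcn2 and Ackr1 limit (filled circles) and the 74 at or above it (open squares). Arterial and haemoglobin genes lie to the right in the wells below the limit, and adhesion, complement, matrix and interleukin 1 receptor genes in the wells above it.

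The comparison of feeding states asked which genes of these endothelial cells differed after 24 h without food. Counts were summed per plate over the endothelial wells and tested with edgeR's quasi-likelihood test, with p-values adjusted by the Benjamini-Hochberg method over all genes tested. Levels in this comparison are CPM scaled with TMM factors. Of 7020 genes, 25 (0.356%) passed an adjusted p of 0.05. Of these, 22 (0.313%) were higher and 3 (0.0427%) lower on the fasted plate, and 605 genes had an unadjusted p under 0.05. The fasted condition is 1 plate, so a difference between plates and one of feeding cannot be told apart, and the spread behind each p comes from the fed plates alone. DESeq2 called 0 of the 25, with 131 genes at an unadjusted p under 0.05 and a lowest adjusted p of 0.0806.

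Glucocorticoid targets were among the genes that rose. Of 17 measured genes in the list of the glucocorticoid receptor and its targets, 3 rose (Zbtb16, Cdkn1a and Angptl4), none fell, and 10 were above all fed plates (58.8%, against 27.8% of all genes tested). The median difference of the list was 0.59 on the log2 scale, against -0.04 over all genes. Zbtb16, a zinc finger transcription factor (mm10 chr9:48654297-48836222, as all coordinates here), stood at 122, 145 and 103 CPM in fed wells and 467 CPM in fasted wells. The fasted plate was far above the 3 fed ones, which lay close together. The difference was 1.93 (SE 0.37) on the log2 scale, with an adjusted p of 0.00203.

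Cdkn1a, which encodes the cell cycle inhibitor p21 (chr17:29090976-29100727), stood at 265, 234 and 310 CPM in fed wells and 784 CPM in fasted wells. It was higher by 1.53 (SE 0.36, adjusted p 0.0284). Angptl4, a secreted inhibitor of lipoprotein lipase (chr17:33773750-33781830), stood at 15.8, 64.7 and 23.5 CPM and then at 147 CPM. It was higher by 2.36 (SE 0.58, adjusted p 0.0407), with transcripts in 9 of 20 fasted wells against 6 of 41, 5 of 24 and 4 of 28 fed wells. Of 18 alternative settings, Zbtb16 passed in 15, Cdkn1a in 12 and Angptl4 in 6. The fasted plate was above all fed plates for each of the 3 genes, as it was, without a test, for 27.8% of all genes tested.

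The remaining members of the list did not pass the test. Fkbp5, a co-chaperone of the receptor, named after its values were seen, stood at 11.3, 0 and 0 CPM in fed wells and 101 CPM in fasted wells, with a difference of 4.00 (SE 1.14, adjusted p 0.140). Nfkbia, the inhibitor of NF-kappaB, was at 1233, 1326 and 1066 against 2122 CPM (adjusted p 0.602). Plat, tissue plasminogen activator, was at 310, 396 and 460 against 669 CPM (adjusted p 0.555). Dusp1, a phosphatase for MAP kinases, and the receptor Nr3c1 lay within the fed range. Without fed plate 3, or with wells thinned to at most 5000 counts, none of the 3 passed. Without fed plate 1, Zbtb16, Cdkn1a and Fkbp5 passed, and without fed plate 2 the same 3 as in the full set. Of the list, Zbtb16 alone passed without the deepest fasted well, as it did without the haemoglobin wells. With the artery-type wells left out, Ddit4 passed beside these 3. The test of the difference from the other non-neuronal wells of the same plates was not passed by any of the 3 (adjusted p 0.995 for Zbtb16 and Angptl4, 0.998 for Cdkn1a). In all other wells these 3 genes were also highest on the fasted plate. Zbtb16 stood there at 65.9 CPM against 19.4 to 62.3 CPM on the fed plates. Cdkn1a stood at 30.2 against 6.07 to 14.0 CPM and Angptl4 at 10.3 against 3.61 to 4.20 CPM.

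**Figure D4:**
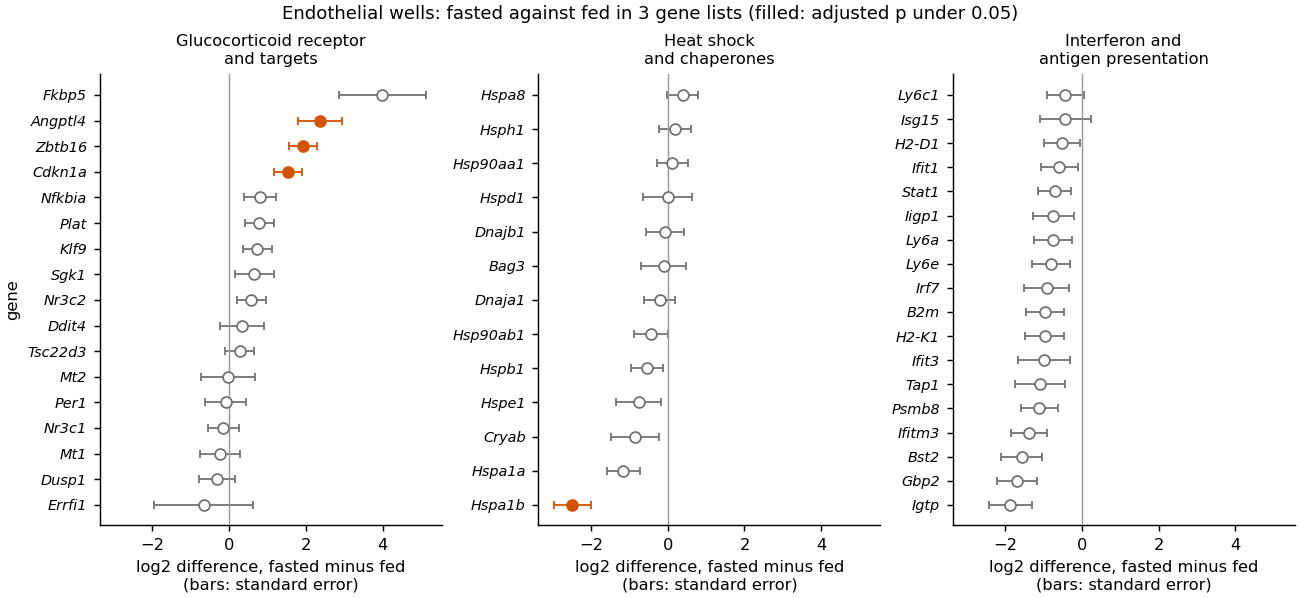
The log2 difference between the fasted plate and the 3 fed plates in the endothelial wells, with its standard error as bars, for each gene of 3 lists. Filled symbols passed the test (Angptl4, Zbtb16 and Cdkn1a higher, Hspa1b lower), and all 18 interferon and antigen presentation genes lie below 0 without passing.

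Of the heat shock genes, Hspa1b fell. Of 13 measured genes in the list of heat shock proteins and chaperones, 1 fell, none rose, and 7 were below all fed plates (53.8%, against 27.8% of all genes). Another 2 were above all fed plates, and the median of the list was -0.21. Hspa1b, an inducible HSP70 (chr17:34956436-34959238), stood at 652, 622 and 498 CPM in fed wells and 105 CPM in fasted wells. The fed plates were close together and the fasted plate was far below them. The difference was -2.48 (SE 0.48) on the log2 scale, with an adjusted p of 0.00217. Hspa1b passed in 16 of 18 alternative settings, with DESeq2 (adjusted p 0.109) and with thinned wells the exceptions.

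Hspa1a, its neighbour on chromosome 17, encodes a nearly identical protein, so reads of the 2 genes may be hard to place. It stood at 785, 719 and 799 CPM in fed wells and 344 CPM in fasted wells, outside the fed range, with a difference of -1.16 (SE 0.43) that did not pass (adjusted p 0.371). Hsp90ab1, a constitutive HSP90, and the small heat shock protein Hspb1 were also below the fed plates, by 0.44 and 0.54 on the log2 scale, and did not pass (adjusted p 0.821 and 0.752). In all other wells Hspa1b stood at 158, 167 and 155 CPM in fed wells and 22.4 CPM in fasted wells. Against the other non-neuronal wells the difference between the 2 fasting differences was -0.21 (SE 0.52, adjusted p 0.999).

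The 2 HSP70 genes share their upstream sequence, shown here because they were the 2 lowest genes of the list. The 250 bases before each start are given 5′ to 3′ in the direction of the gene (RefSeq, GRCm38.p6, minus strand, chr17:34972157-34972406 for Hspa1a and chr17:34959239-34959488 for Hspa1b). Capitals mark matches to GAANNTTC, the inverted pair of units that heat shock factors bind.
Hspa1a: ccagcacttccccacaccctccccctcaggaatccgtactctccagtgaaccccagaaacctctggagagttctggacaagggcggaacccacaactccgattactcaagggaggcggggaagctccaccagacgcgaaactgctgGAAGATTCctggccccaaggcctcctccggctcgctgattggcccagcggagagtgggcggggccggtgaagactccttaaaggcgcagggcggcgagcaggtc
Hspa1b: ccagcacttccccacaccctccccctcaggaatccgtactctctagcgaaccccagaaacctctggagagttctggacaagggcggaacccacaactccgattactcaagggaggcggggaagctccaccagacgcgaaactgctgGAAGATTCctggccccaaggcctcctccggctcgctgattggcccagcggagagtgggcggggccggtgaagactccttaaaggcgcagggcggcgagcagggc
The stretches were identical at 247 of 250 positions. Each held 1 match, read on both strands, since the motif is its own reverse complement. Of all 32851 promoters in the table, 6.69% held a match in the same window. Of the 20 called genes that were neither pseudogenes nor unnamed models, 12 had an entry there and 5 of these held a match. A match describes the letters only.

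Metabolic and vascular genes outside these lists also differed. Sult1a1, a sulfotransferase that conjugates phenols and hormones (chr7:126672865-126676432), stood at 36.2, 32.3 and 23.5 CPM in fed wells and 225 CPM in fasted wells. It was higher by 2.81 (SE 0.48, adjusted p 0.000386), with transcripts in 14 of 20 fasted wells against 12 of 41, 4 of 24 and 3 of 28 fed wells. Fmo2, a flavin monooxygenase, stood at 27.2, 72.7 and 37.6 against 247 CPM and was higher by 2.61 (SE 0.48, adjusted p 0.00143). Net1, an exchange factor for RhoA, stood at 253, 307 and 413 against 1059 CPM and was higher by 1.71 (SE 0.37, adjusted p 0.0124). Of 18 alternative settings, Sult1a1 and Fmo2 passed in 16 each and Net1 in 14.

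Tmcc3, Cttnbp2nl and Arhgap26, named after their values were seen, rose by 1.55 to 1.64 on the log2 scale. Arhgap26 stood at 143, 299 and 193 CPM in fed wells and 600.3 CPM in fasted wells. Of 18 alternative settings, Tmcc3 and Cttnbp2nl passed in 15 each and Arhgap26 in 11. For Sult1a1 and Fmo2 the other wells of the fasted plate were also the highest, at 14.97 CPM against 2.80 to 9.58 CPM and at 16.4 CPM against 2.10 to 3.87 CPM. Tmcc3, Cttnbp2nl and Arhgap26 were highest there too, at 411, 38.8 and 312 CPM against at most 235, 23.1 and 199 CPM. Net1 was lowest there, at 12.1 CPM against 14.2 to 24.0 CPM.

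Several of the largest differences rested on 1 well. Nov, a secreted matrix protein also called Ccn3 (chr15:54745702-54754039), stood at 2.26, 40.4 and 28.2 CPM in fed wells and 408 CPM in fasted wells, a difference of 4.53 (SE 0.70, adjusted p 0.0268). Of its 89 fasted counts, 81 came from 1 well, the deepest on the plate and artery-type, and it was seen in only 1 other fasted well. Without that well Nov did not reach the filter of the test. Adgrg6, an adhesion G protein-coupled receptor, was higher by 3.91 (SE 0.63, adjusted p 0.000314), with 62.9% of its 35 fasted counts in 1 of 5 wells. Tbc1d8 was higher by 2.22 (SE 0.52, adjusted p 0.0268), with 68.6% in 1 of 5 wells. Nov passed in 9 of the 13 alternative settings that tested it, Adgrg6 in 14 of 17 and Tbc1d8 in 12 of 17.

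Other genes that rose were also highest on the fasted plate in the non-endothelial wells. Chgb, chromogranin B of secretory granules, stood at 45.3, 24.2 and 18.8 CPM in the fed endothelial wells and 225 CPM in the fasted ones, a difference of 2.76 (SE 0.48, adjusted p 0.000536). In the other wells it stood at 862, 223 and 264 CPM in fed wells and 1261 CPM in fasted wells. Vgf, a neuropeptide precursor, was higher by 2.10 (SE 0.50, adjusted p 0.0284), and in the other wells it stood at 146 to 198 CPM in fed wells and 610 CPM in fasted wells. Stmn1, a tubulin-binding protein (2.65, SE 0.58, adjusted p 0.0137), and the ribosomal protein gene Rpl23a (2.31, SE 0.52, adjusted p 0.0173) were also highest in the other wells of the fasted plate. Of 18 alternative settings, Chgb passed in 16, Rpl23a in 14, Stmn1 in 13 and Vgf in 10. The 5 remaining calls were pseudogenes or unnamed models, from 1.95 to 3.63 on the log2 scale, and these too were highest there. On the fasted plate Chgb, Vgf and Stmn1 were higher in the other wells than in the endothelial wells. Rpl23a was lower in the other wells, at 117 CPM against 165 CPM. The part of transcripts from other wells in these levels was not tested.

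Beside Hspa1b, 2 genes fell. Dynlrb1, a light chain of the dynein motor, stood at 231, 178 and 197 CPM in fed wells and 45.8 CPM in fasted wells, a difference of -2.15 (SE 0.52, adjusted p 0.0301). Gstm6, a glutathione transferase, stood at 54.3, 64.7 and 65.8 CPM in fed wells and had 0 counts on the fasted plate. Set against a floor of 3 counts it was at least 4.48-fold lower (adjusted p 0.0344). Both were also lowest in the other wells of the fasted plate, Dynlrb1 at 152 against 231 to 292 CPM and Gstm6 at 65.7 against 129 to 188 CPM. Dynlrb1 passed in 7 of 18 alternative settings and Gstm6 in 8 of the 16 that tested it.

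**Figure D5:**
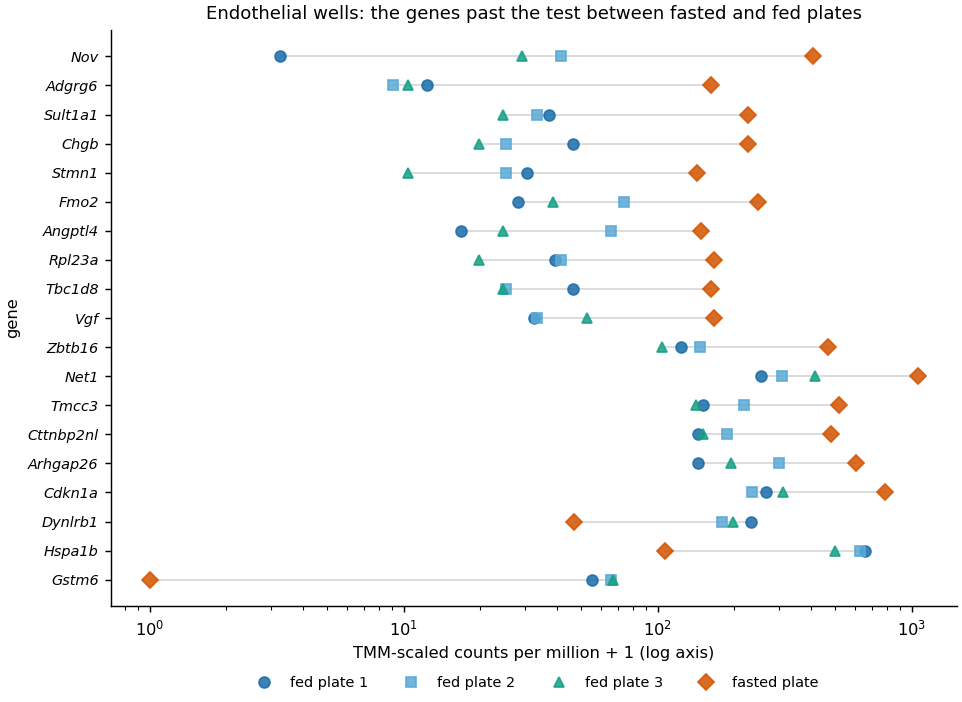
TMM-scaled CPM plus 1 (log axis) on each plate for 19 of the genes that passed the test and are neither pseudogenes nor unnamed models. For each gene the fasted plate lies outside the 3 fed plates, above them for 16 genes and below them for Dynlrb1, Hspa1b and Gstm6. Without a test, it lay above them for 27.8% and below them for 27.8% of all genes tested.

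Interferon and antigen presentation genes were low on the fasted plate without any passing the test. Of 18 measured genes 0 passed edgeR's test or DESeq2, with 5 and 3 at an unadjusted p under 0.05. All 18 differences were below 0, with a median of -0.94, and 14 were below all fed plates (77.8%, against 27.8% of all genes). B2m, the light chain of MHC class I, stood at 4582, 2061 and 2330 CPM in fed wells and 1540 CPM in fasted wells (adjusted p 0.602). Ly6a, Ly6e and Ly6c1, surface antigens that interferon raises, had the same order, with Ly6e at 4569, 2748 and 3048 against 1980 CPM (adjusted p 0.668).

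Fed plate 1 was the highest plate for these 4 genes. Without fed plate 1 the median of the list was -0.55, still with 0 calls, and in wells with Xist and no Y-linked transcripts it was -0.46. Fed plate 1 had no such wells, so the value of -0.46 leaves out that plate too. Without fed plate 2, 2 genes passed, Gbp2 and Igtp. Of the endothelial wells, 0, 14, 15 and 15 had Xist alone and 36, 2, 6 and 0 had Y-linked transcripts alone on fed plates 1, 2 and 3 and the fasted plate. Sex was thus not balanced over the plates, and its part in this and the other differences was not tested.

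Barrier genes showed no call in either direction. Of 20 transporters 0 passed edgeR's test or DESeq2 (1 and 0 at an unadjusted p under 0.05), with a median of 0.09 and 11 of 20 differences above 0. Slc2a1, the glucose transporter GLUT1, stood at 2295, 2037 and 1917 CPM in fed wells and 2901 CPM in fasted wells, a difference of 0.48 (SE 0.44, adjusted p 0.801). Slco1a4 and Slco1c1 differed by 0.55 (SE 0.46) and -0.46 (SE 0.46). Of 9 junction genes 0 passed by either tool, also at an unadjusted p, with a median of -0.04. For Tjp1, the scaffold protein ZO-1, the difference was 0.10 (SE 0.44). The median SE over all genes was 0.56 on the log2 scale, so that levels of barrier genes may differ without passing.

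In 3 lists of energy genes, 1 gene passed the test. Of 24 nuclear genes of oxidative phosphorylation 0 passed by either tool (4 and 0 at an unadjusted p under 0.05), with a median of -0.41 and 14 below all fed plates (58.3%, against 27.8%). Their summed level, unscaled, was 2254 CPM in fasted wells and 2890 to 3117 CPM in fed wells. In the other wells it was also lowest on the fasted plate, at 3369 CPM against 4411 to 4999 CPM. Of 15 glycolysis genes 0 passed (3 and 1 unadjusted), with a median of -0.46 and 9 below all fed plates (60.0%), while their summed level of 4335 CPM lay within the fed range of 4087 to 4737 CPM. In the other wells the glycolysis sum was lowest on the fasted plate, at 2882 CPM against 3655 to 4547 CPM. In the list of fatty acid use and PPAR, Angptl4 alone of 13 genes rose, the median was 0.09 and the summed level was 1953 CPM in fasted wells against 1331 to 1686 CPM in fed wells. In the other wells this sum was also highest on the fasted plate, at 878 CPM against 747 to 847 CPM. Of 15 clock genes 0 passed (4 and 1 unadjusted), and Nr1d1, the repressor REV-ERB alpha, named after its values were seen, had a difference of -1.64 (SE 0.47, adjusted p 0.140).

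The level of arterial genes moved with the wells taken. Of 13 measured arterial genes 0 passed by either tool (2 and 1 unadjusted), with a median of -1.30, and of 9 venous genes 0 passed (1 and 1), with a median of 0.72. The arterial level varied widely among the fed plates as well, with Mgp, a matrix Gla protein, at 2869, 364 and 1973 CPM and then 325 CPM on the fasted plate. Without fed plate 2, 6 of the 13 arterial genes passed as lower, and without fed plates 1 or 3 Gja4 alone did. Artery-type wells were 3 of 20 on the fasted plate, a share near those of fed plates 2 and 3. All 3 had arterial and capillary sums within a factor of 2, so none lay clearly on the arterial side. With the artery-type wells left out the median over 11 arterial genes was -2.26, with Alpl and Tm4sf1 lower, and without fed plate 1 as well it was -0.57 over 7 genes, with the same calls. Without the deepest fasted well it was -2.17, and in wells with Xist alone, which leave out fed plate 1, -0.31 over 8 genes, with 0 calls in either. Pericyte and smooth muscle markers were low beside them, with a median of -1.15 over 10 genes and 0 calls (0 and 2 unadjusted).

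With the artery-type wells left out, 93 genes passed, 63 higher and 30 lower, among them 23 of the 25. Vwf was then the 1 called gene of the venous list, and its level is given above. With fed plate 1 left out as well, 138 genes passed, 108 higher and 30 lower, including 21 of the 25. In that setting 7 of 17 glucocorticoid genes rose (Cdkn1a, Ddit4, Fkbp5, Nfkbia, Plat, Sgk1 and Zbtb16) and Hspa1a and Hspa1b fell. These 2 settings were added after the wells' values had been seen, and the second leaves 2 fed plates for the spread.

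Whether the endothelial wells responded differently from the rest of each plate was tested as an interaction, with the plate as a block. Against all other wells, 31 of 16694 genes (0.186%) passed edgeR's test, 17 with a more positive and 14 with a more negative difference in endothelium. Without scaling factors the split was 10 and 18. Net1 rose in endothelium (mean of the fed plates 299 CPM, fasted plate 934 CPM, unscaled) while it stood at 19.7 and 12.1 CPM in the other wells, an interaction of 2.48 (SE 0.45, adjusted p 0.000287). Vwf, at 640 and 1175 CPM in endothelium, and Tmem252, at 124 and 315 CPM, also had positive interactions, of 2.48 (SE 0.48, adjusted p 0.000851) and 3.35 (SE 0.72, adjusted p 0.00532). Of these, Net1 also passed the test within endothelium, and Vwf and Tmem252 did not (adjusted p 0.811 and 0.359). Without fed plate 1 the interactions of Vwf and Tmem252 were lost (adjusted p 0.114 and 0.642), and that of Net1 kept an adjusted p of 0.0032. Of the fasted endothelial counts, 1 well supplied 44.7% for Vwf, 35.9% for Tmem252 and 22.9% for Net1. These genes were seen in 11, 9 and 17 of 20 fasted wells.

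Among the negative interactions, several genes moved more in the other wells than in endothelium. Mal and Car2, genes of myelinating cells, stood at 40.5 and 59.3 CPM in the other wells of the fed plates and at 323 and 283 CPM in those of the fasted plate. Both were higher in the fed endothelial wells than in the fed other wells. In endothelium Mal stood at 280, 326 and 303 CPM in fed wells and 456 CPM in fasted wells. Car2 stood there at 79.4, 174 and 105 CPM and then at 76.6 CPM. Summed oligodendrocyte markers in the other wells stood at 1025, 1396 and 796 CPM in fed wells and 5107 CPM in fasted wells. Against the other non-neuronal wells, 1 of 13926 genes (0.00718%) passed, Nov, whose fasted counts came mostly from 1 well. Without fed plates 1, 2 or 3 that count was 34, 4 and 38.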

How the data were processed

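Single cells of 4 plates (3 fed, 1 fasted) were read as deposited tables of expected counts per gene and well. By their values these are UMIs that the authors corrected for collisions, since 100% map to whole UMIs out of 4096 (tolerance 1e-06), with no further scaling. Trim Galore, STAR and the mm10 build are named in the submitters' processing notes. The sources used here do not name the UMI counter or the annotation. Of 35963 gene rows, 35910 matched GENCODE vM21, which gave coordinates.

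Counts were kept at 1000 or more per well, with ERCC and mitochondrial rows left out of totals. No doublet caller was run on these sorted wells. Endothelial wells held 1050 to 53243 counts each. Sums per plate were rounded and tested with edgeR 4.0.16 (filterByExpr, TMM, robust quasi-likelihood test, Benjamini-Hochberg adjustment, 2 residual degrees of freedom). The fasted plate is assumed to vary like the fed ones. Nothing says that plates came from separate mice, so p-values measure only the spread between plates. DESeq2 1.42.0, other filters, limits and well subsets, and leaving out each fed plate were alternatives. The edgeR fits were tested on simulated data.

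Members and gene lists were chosen with earlier results of these data known. Genes named for fasting are the 12 highest and 12 lowest calls with at least 20 CPM in the higher group and the fasted plate outside the fed range, excluding rule genes, sex-linked and mitochondrial genes, pseudogenes and unnamed models, and per list the called genes and up to 4 further ones of the highest level. For interactions they are the 6 at each end, for other wells the 15 highest ratios, and for the Lcn2 and Ackr1 limit the 12 at each end. Further genes are marked as named after their values were seen, and in the sections on receptors, vessel zones and the interactions all genes outside these rules were. Some genes that these rules name are not reported here.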

Additional observations from a re-analysis of the deposited data

Results flagged for a closer look

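The differences between plates went apart in endothelium and in the other wells for 10 genes named by rule and reported here, each by the interaction test (edgeR, plate as a block) against all other wells. Positive differences, on the log2 scale, were 7.55 for Nov, 4.30 for Adgrg6, 4.06 for Ch25h, 3.81 for Slc32a1 and 3.35 for Tmem252. Negative ones were -2.96 for Id2, -3.09 for Laptm5, -3.32 for Prr5l, -4.38 for Pdlim2 and -10.24 for Thrb. Thrb had 0 counts in the fasted endothelial wells, so its value depends on the prior count and is no measure of size. Slc32a1 had only 1, 0, 3 and 9 counts in the endothelial wells. In the other wells it stood at 155 CPM (mean of the fed plates) and 94.7 CPM (fasted plate). Ch25h stood at 165, 7.57 and 17.6 CPM in fed endothelial wells and 194 CPM in fasted ones. It did not pass edgeR's test within endothelium (adjusted p 0.903). Against the other non-neuronal wells Nov alone passed, with 8.24. Of these 10 genes, 7 did not pass without fed plate 1 (Adgrg6, Ch25h, Slc32a1, Tmem252, Id2, Laptm5 and Pdlim2) and 3 not without fed plate 3 (Laptm5, Prr5l and Pdlim2), 8 in all. Nov and Thrb passed with any 1 fed plate left out. For Nov this leaves the fasted counts as they were, and 81 of those 89 counts came from 1 well.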

How the results depend on the processing

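All 19 genes reported among the calls that are neither pseudogenes nor unnamed models kept their direction in every setting in which they were tested. For fasted against fed, 25 genes passed. DESeq2 called 0, and thinning each well to at most 5000 counts left 2. An endothelial sum of at least 30 gave 38, a limit of 10 on Lcn2 and Ackr1 gave 16, and wells with Xist alone gave 63. Fed plate 1 had no well with Xist alone, so that last setting leaves it out as well. Leaving out artery-type wells gave 93, and leaving out fed plate 1 as well gave 138. Leaving out 1 fed plate gave 19 to 106 (72 without plate 1, 106 without plate 2, 19 without plate 3). The cause was not tested. Against all other wells 31 passed, 20 without a filter on low counts, 0 without the plate block (880 at an unadjusted p under 0.05), and 22 to 58 with 1 fed plate left out. Against other non-neuronal wells 1 passed, and 4 to 38 with 1 fed plate left out. Thinning and leaving out the deepest fasted well, haemoglobin wells or artery-type wells were chosen after seeing the data. Settings whose count is not given here stayed within 1.5 times of the full count. No paired analysis was possible because the fasted condition is 1 plate, so that at most 1 pair with a fed plate could be formed. The 20 to 41 wells a plate limit the depth of each sum.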
